A study of Mus musculus with 4 samples.

Results

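The intergenic H3K9ac peaks of senescent mouse myeloid-derived suppressor cells (MDSC) were examined, together with the peaks that covered the same places after romidepsin. They were the peaks of the CM list that were 5000 bp or shorter and lay more than 1 kb from the span of every protein-coding gene, from its annotated start to its end in RefSeq (GRCm38.p6, the assembly that mm10 represents). This gave 2240 of the 16419 CM peaks (13.6%, exact 95% interval 13.1 to 14.2). Position and length chose the peaks, so both are given as descriptions with no test. For comparison, 9829 CM peaks lay within 1 kb of either annotated end of a protein-coding gene, and 4340 lay elsewhere inside such genes. Either end means the start of the gene or its far end, and both are called gene ends here.

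Chromatin immunoprecipitation with an antibody against histone H3 acetylated at lysine 9 (H3K9ac) was followed by sequencing. The cells were MDSC derived from mouse bone marrow and made senescent in vitro, a condition that the labels name CM without spelling it out, and they were left without romidepsin or given romidepsin, an inhibitor of histone deacetylases. Each of the 2 conditions had 1 immunoprecipitated library and 1 input library, and the inputs were not analysed here. Strain, age, dose and time are unknown, and cells induced in culture are a model of MDSC from tissue. The number of reads per library is unknown, no difference between the conditions has a replicate check, and no test between them was run. A deeper library gives more and wider peaks at the same threshold, so depth and treatment cannot be told apart in any comparison of the CM list with the romidepsin list, which held 103336 peaks.

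H3K9ac is laid down by histone acetyltransferases and removed by histone deacetylases, and it marks active promoters and, at a lower level, active enhancers. Enhancers are stretches of regulatory DNA that bind transcription factors and act on a promoter at a distance, often from intergenic sequence, and genes for lineage regulators often lie in gene-poor surroundings with many such elements. Promoters of non-coding RNAs lie between protein-coding genes as well. No other histone mark was analysed here, and 842 of the 2240 intergenic peaks (37.6%, interval 35.6 to 39.6) overlapped an annotated non-coding gene, so the peaks are called intergenic CM peaks here and not enhancers. As to cell type, 18 of 20 listed myeloid transcription factor genes and 15 of 20 monocyte and macrophage marker genes had a CM peak at a gene end, against 48.8% of all protein-coding genes. Among markers of other cells these were 9 of 20 neutrophil, 5 of 15 dendritic cell and 6 of 14 erythroid and megakaryocyte genes. Lymphocyte markers had 4 of 20, stromal and endothelial markers 1 of 15 and mast cell and basophil markers 0 of 10. Neuron, liver, muscle and germ cell genes had 0 of 20. The count of 18 of 20 was not particular to myeloid factors. AP-1 and immediate early, senescence and cell cycle arrest, and NF-kappaB pathway genes each had 18 of 20. Lipid handling and lysosome genes had 17 of 20, immune suppression genes 12 of 20, secreted inflammatory factors 8 of 20 and histone deacetylase and corepressor genes 9 of 15.

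Some intergenic peaks lay over microRNA genes, and mature sequences of these are shown because they identify the RNA that the peak covers. In all, 15 microRNA genes lay under 12 peaks, of which 14 genes with 26 mature sequences were in the RefSeq sequence table (GRCm38.p6). The 26 mature sequences had 26 different seeds, so no seed family was shared between peaks, and 24 of them lay wholly inside their peak. Capitals mark the seed, bases 2 to 8 from the 5′ end.

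mmu-let-7i-5p: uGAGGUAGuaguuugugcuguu
mmu-miR-22-3p: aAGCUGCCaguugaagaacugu
mmu-miR-760-3p: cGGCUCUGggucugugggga
mmu-miR-193a-5p: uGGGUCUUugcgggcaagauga
mmu-miR-210-3p: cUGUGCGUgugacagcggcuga
mmu-miR-23a-3p: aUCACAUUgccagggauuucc
mmu-miR-27a-3p: uUCACAGUggcuaaguuccgc
mmu-miR-24-3p: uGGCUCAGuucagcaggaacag
mmu-miR-223-3p: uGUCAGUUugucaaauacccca

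The peak over Mir22 on chromosome 11 (chr11:75461570-75463863) had a fold enrichment of 7.03 in the CM list and that over Mirlet7i (chr10:122984069-122986890) a fold of 6.74. Mir760 shared its peak (chr3:122292917-122294183, fold 7.58) with an arginine tRNA gene. Mir193a (chr11:79710928-79712027) lay under a peak of fold 5.87, and Mir210, whose product is induced by hypoxia in many cell types, under a peak of fold 5.22 that started 1529 bp from Rassf7. A single peak of 1272 bp and fold 5.09 on chromosome 8 (chr8:84208013-84209284), 1658 bp from Zswim4, held Mir23a, Mir27a and Mir24-2 of the miR-23a cluster, and Mir3074-2 on the other strand. Mir223, whose product is abundant in granulocytes and monocytes, lay under the longest of the 12 (chrX:96240059-96243798, 3740 bp, fold 4.62), 3403 bp from Vsig4.

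The second set of sequences shows start sites of long non-coding RNAs (lncRNAs) inside intergenic CM peaks. Of the 2240 peaks, 181 (8.08%, interval 6.98 to 9.29) held a lncRNA start of the RefSeq table, and each sequence runs from 250 bases before the start to 50 after it, on the RNA's strand. Shown are 2 of the starts under the highest folds, 6530402F18Rik (chr2:29252944-29253243, minus strand, fold 7.27, nearest gene Ntng2) and 1700096K18Rik (chr5:25529768-25530067, plus strand, fold 7.18, nearest gene Cct8l1). The other two lie near listed regulators, D730003I15Rik (chr1:191224204-191224503, plus strand, fold 5.76) at 40593 bp from Atf3 and Gm14321 (chr2:167777241-167777540, plus strand, fold 5.14) at 85885 bp from Cebpb. Capitals mark matches, on either strand, to the 8 motifs searched. These were the GC box (GGGCGG), the CCAAT box (by its name), the TATA box (TATAAA) and the AP-1 motif (TGANTCA). The others were the cyclic AMP response element or CRE (TGACGTCA), the PU.1 core (GAGGAAG), the C/EBP motif (TTGCNNAA) and the NF-kappaB motif, which is GGGA and CC with 4 free bases between them. A match is a description of the letters only, and matches may overlap.

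6530402F18Rik: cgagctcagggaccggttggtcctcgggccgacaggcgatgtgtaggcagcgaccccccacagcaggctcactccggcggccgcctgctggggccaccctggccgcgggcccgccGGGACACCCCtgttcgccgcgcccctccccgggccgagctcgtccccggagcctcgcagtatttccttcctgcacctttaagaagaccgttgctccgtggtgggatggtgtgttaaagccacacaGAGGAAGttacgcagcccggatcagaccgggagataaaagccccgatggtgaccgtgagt
1700096K18Rik: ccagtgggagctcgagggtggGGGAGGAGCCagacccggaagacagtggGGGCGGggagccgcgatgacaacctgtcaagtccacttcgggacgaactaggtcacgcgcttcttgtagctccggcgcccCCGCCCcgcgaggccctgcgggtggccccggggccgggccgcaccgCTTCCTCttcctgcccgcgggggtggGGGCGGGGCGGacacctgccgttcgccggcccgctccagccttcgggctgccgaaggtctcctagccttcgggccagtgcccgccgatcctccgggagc
D730003I15Rik: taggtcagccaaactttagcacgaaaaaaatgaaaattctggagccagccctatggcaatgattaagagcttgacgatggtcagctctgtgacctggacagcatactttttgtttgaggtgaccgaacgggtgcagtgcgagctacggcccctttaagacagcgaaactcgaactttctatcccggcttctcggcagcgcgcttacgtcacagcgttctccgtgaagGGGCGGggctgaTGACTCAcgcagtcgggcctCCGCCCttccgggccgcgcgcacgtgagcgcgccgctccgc
Gm14321: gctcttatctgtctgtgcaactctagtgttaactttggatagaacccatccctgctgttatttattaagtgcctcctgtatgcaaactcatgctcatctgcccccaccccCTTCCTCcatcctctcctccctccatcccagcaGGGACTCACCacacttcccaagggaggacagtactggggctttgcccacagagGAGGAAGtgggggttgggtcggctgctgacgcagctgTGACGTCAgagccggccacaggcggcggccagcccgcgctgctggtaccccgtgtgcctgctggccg

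Over all 217 lncRNA starts (of 189 genes) in intergenic CM peaks, the 300-base windows held a median of 11 CpG dinucleotides (interquartile range 6 to 20), against 3 in 7065 intergenic lncRNA starts outside CM peaks and 23 in 9230 protein-coding starts under a CM peak. A GC box, bound by SP-family factors, was present in 41.9% of the windows, in 8.10% of the intergenic lncRNA windows outside CM peaks and in 35.7% of all 32851 windows of the table. The PU.1 core was present in 21.2%, against 12.9% and 13.6% in the same comparison sets, and the CRE in 3.69%, against 0.708% and 1.79%. The NF-kappaB letters were present in 25.3%, against 13.9% and 20.7%. For AP-1 the share was 8.76%, against 10.7% and 7.81%, and for the C/EBP letters 12.0%, against 13.5% and 10.8%. The CCAAT box was present in 31.8%, against 38.0% and 37.4%, and the TATA box in 10.1%, against 17.9% and 13.6%. The 954 intergenic lncRNA starts in a romidepsin peak only had a median of 4 CpG dinucleotides and a GC content of 49%. Of these windows 13.2% held a GC box, 17.5% the PU.1 core, 17.6% the NF-kappaB letters, 0.943% the CRE, 13.3% AP-1, 16.7% C/EBP, 34.7% the CCAAT box and 13.2% the TATA box. The windows under intergenic CM peaks were thus richer in CpG and in the GC box, PU.1, CRE and NF-kappaB letters than windows of intergenic lncRNAs outside CM peaks, while the shares with AP-1, C/EBP, CCAAT and TATA letters were lower. GC content had a median of 56% against 46.7%, which itself changes how often GC-rich letters occur, and its part in these shares was not tested. Several starts of a gene could lie in the same peak and their windows could overlap, so the windows are not independent. For the CRE, the windows of Gm14321 and of a Gm32287 start in the same peak held the same letters on opposite strands. The shares are therefore descriptions of the windows only.

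Intergenic CM peaks lay at a median of 14871.5 bp from the nearest protein-coding gene (interquartile range 5460 to 38148). The nearest was 1001 bp from Hacd4 and the farthest 1411263 bp from Cntnap5b. Of the 2240 peaks, 38.5% lay within 10 kb of a gene, 80.7% within 50 kb and 92.6% within 100 kb. Among the 1743 peaks whose nearest gene had a strand in the sequence table, 939 (53.9%, interval 51.5 to 56.2) were upstream of it and 804 downstream. Within 5 kb of the gene the upstream share was 54.9% (interval 50.0 to 59.7), so at neither range did the peaks lie mainly on the side of the start. The peaks farthest from genes on chromosomes 1 to 19 and X were those nearest Cntnap5b (fold 3.73), Gm40892 (1033809 bp, fold 3.70), Adam6a (832222 bp, fold 5.15, inside the immunoglobulin heavy chain locus Igh), Hnf4g (679202 bp, fold 3.64) and Klf4 (581261 bp, fold 3.81).

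**Figure D1:**
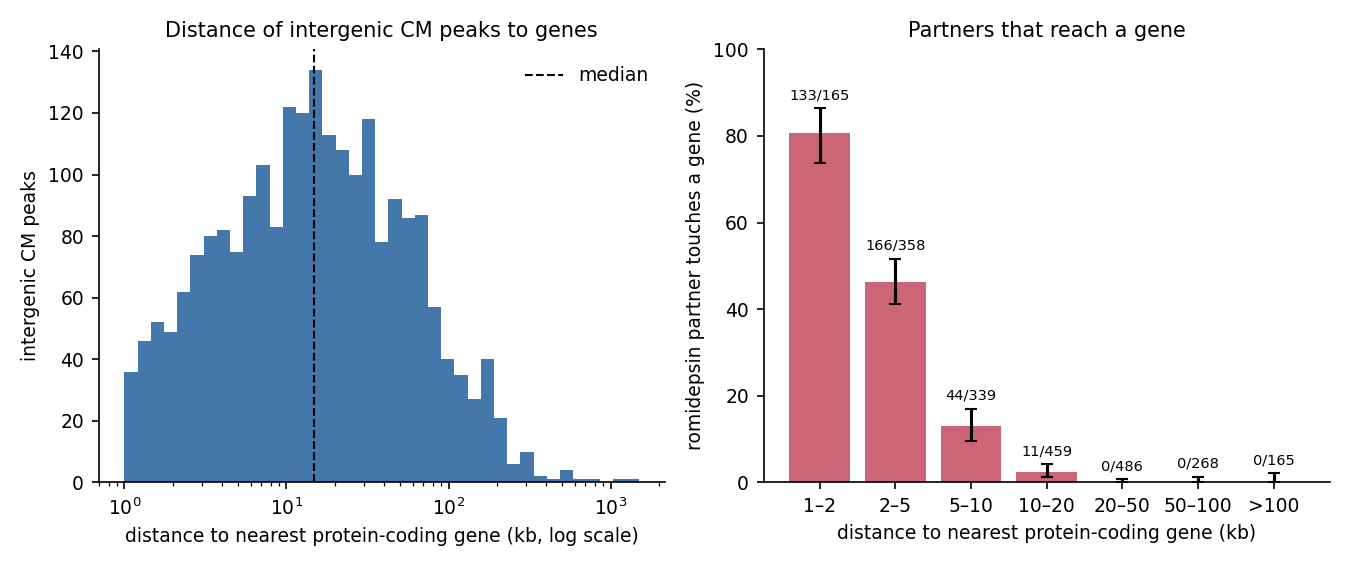
The left panel counts the 2240 intergenic CM peaks by distance to the nearest protein-coding gene (kb, log scale), with the median of 14871.5 bp as a dashed line. The right panel gives, for each distance bin, the percentage of peaks whose romidepsin partner touched a protein-coding gene, with exact 95% intervals as error bars and counts above the bars, and shows the share falling from 80.6% at 1 to 2 kb to 0 beyond 20 kb.

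The limits of the rule cut through a continuous range. Just inside the distance limit were peaks at 1001 bp from Hacd4, 1002 bp from Gm40369, 1005 bp from Gadd45g and 1010 bp from Slc22a5, with folds of 3.82, 4.13, 4.29 and 3.99. Just outside were peaks at 990 bp from Fth1, 987 bp from Mast3, 977 bp from Ccin, 934 bp from Dcun1d5 and 931 bp from Cirbp, with folds of 4.56, 3.44, 3.38, 4.01 and 4.40. The longest peaks inside the length limit were nearest Lilrb4a (4640 bp), Supt4a (4574 bp), Mcl1 (4414 bp), Kcnrg (4395 bp, over the lncRNA gene Dleu2) and Tomm20 (4324 bp). The length limit left out 5 peaks, all of them over non-coding genes: Malat1 with Mascrna (9776 bp, fold 7.15), Chaserr (8298 bp, fold 6.60), Gm21370 with Gm22108 and Gm36161 (7975 bp, fold 6.23), a further peak over Dleu2 (5500 bp, fold 6.22) and a peak over the ribosomal RNA sequence Rn18s-rs5 with AY036118 (5250 bp, fold 3.39).

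Intergenic CM peaks were short and of modest enrichment. Their length had a median of 621 bp (interquartile range 403 to 987), against 1474 bp at gene ends and 699 bp inside genes. Fold enrichment, the authors' value for the whole broad region over background, had a median of 4.06 (3.71 to 4.59), against 5.69 at gene ends and 4.00 inside genes. The median −log10 q was 2.34, and 1449 of the 2240 peaks reached 2. In length and fold the intergenic peaks therefore lay close to those inside genes and below those at gene ends.

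The 4 highest folds stood apart from the rest and lay within 1 stretch of chromosome 8. They were 14.6 (chr8:19784391-19785905, over Gm10060), 10.1 (chr8:20122048-20124029), 9.80 (chr8:20295869-20297685, over 6820431F20Rik and Gm20583) and 8.73 (chr8:20422937-20425033, over 2610005L07Rik and Gm20584), and the next value in the ranking was 7.70. Their −log10 q values of 29.6, 20.7, 18.4 and 16.5 likewise stood above the 9.12 of the next peak. In the romidepsin list the partners of these 4 had folds of 4.76, 4.03, 3.40 and 3.97. Another peak, nearest Cr2 on chromosome 1 (chr1:195241402-195242097), had a fold of 7.13 with a −log10 q of 15.8, where the 34 peaks with folds of 6.5 to 7.5 had a median of 7.39. Several of these regions carry annotated pseudogenes or repeated gene families, short reads may be shared among copies there, and the part of that in these values was not tested. After them came peaks over the lncRNA gene Gm52681 near Cela3a (7.70) and over Mir760 near Dnttip2 (7.58), a peak 10684 bp from Apbb1ip (7.39) with no annotated non-coding gene, and the peaks over 6530402F18Rik (7.27), Gm10777 (7.20) and 1700096K18Rik (7.18). Of the 6 peaks in this last run, 5 lay over a non-coding gene.

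Intergenic CM peaks overlapped non-coding genes more often than the intergenic peaks that appeared in the romidepsin list alone. The same length and distance limits applied to the romidepsin list gave 30961 peaks, of which 29867 overlapped no CM peak, and 24.1% of these overlapped a non-coding gene, against 37.6% of the intergenic CM peaks. For lncRNA genes the shares were 30.7% and 21.2%, and for a lncRNA start 8.08% and 1.91%. Transfer RNA genes, transcribed by RNA polymerase III, lay under 50 intergenic CM peaks (2.23%, interval 1.66 to 2.93) and under 24 romidepsin-only peaks (0.0804%). Small nuclear RNA genes lay under 24 (1.07% against 0.0469%), transcribed pseudogenes under 41 (1.83% against 0.499%) and other pseudogenes under 45 (2.01% against 1.61%). MicroRNA genes lay under 12 (0.536% against 0.0502%), snoRNA genes under 8 (0.357% against 0.0670%) and misc_RNA genes under 11 (0.491% against 0.295%). The romidepsin-only set leaves out by definition every romidepsin peak that overlaps a CM peak. A small RNA gene wholly under a CM peak could therefore not count in that set. Peaks are not replicates of a condition, so these shares are descriptions with no test, and depth and treatment cannot be told apart in them. The romidepsin-only peaks had a median length of 791 bp and a median fold of 2.60, in a list whose folds are not comparable with those of the CM list.

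Peaks over small RNA genes and lncRNA starts were the stronger and longer ones among the intergenic CM peaks. The median fold was 5.54 over microRNA genes (12 peaks), 5.36 over tRNA genes (50), 4.90 over lncRNA starts (181), 4.54 over small nuclear RNA genes (24), 3.98 in the body of lncRNA genes without a start (507) and 4.00 where no non-coding gene lay (1398). Median lengths ran from 1420.5 bp over microRNA genes and 1344 bp over tRNA genes to 561 bp where no non-coding gene lay. A longer peak has more room to overlap a gene. Fold also rose with length among intergenic CM peaks, from a median of 3.79 at 250 to 500 bp to 5.44 at 2000 to 5000 bp. These groups were not compared at equal length, so the part of length in their folds was not tested. A peak inside a lncRNA gene but off a listed start thus had about the same fold as a peak with no annotated RNA. The start table did not hold every protein-coding gene, so lncRNA starts may be missing from it too, and some of the 507 peaks may lie on such starts. The tRNA peaks lay on 15 chromosomes, with 12 on chromosome 13, 8 each on chromosomes 1 and 11, and fewer elsewhere. Copies of tRNA genes are near-identical, so the assignment of reads to single tRNA genes is uncertain. Among lncRNA genes with known roles, Lncpint had 7 peaks (highest fold 6.46, 1 at its start), Dleu2 had 2 (5.99), Trp53cor1 near Cdkn1a had 1 (4.89) and Lockd near Cdkn1b had 1 (5.02). Neat1 had none, and Malat1 lay only under the peak excluded for its length.

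**Figure D2:**
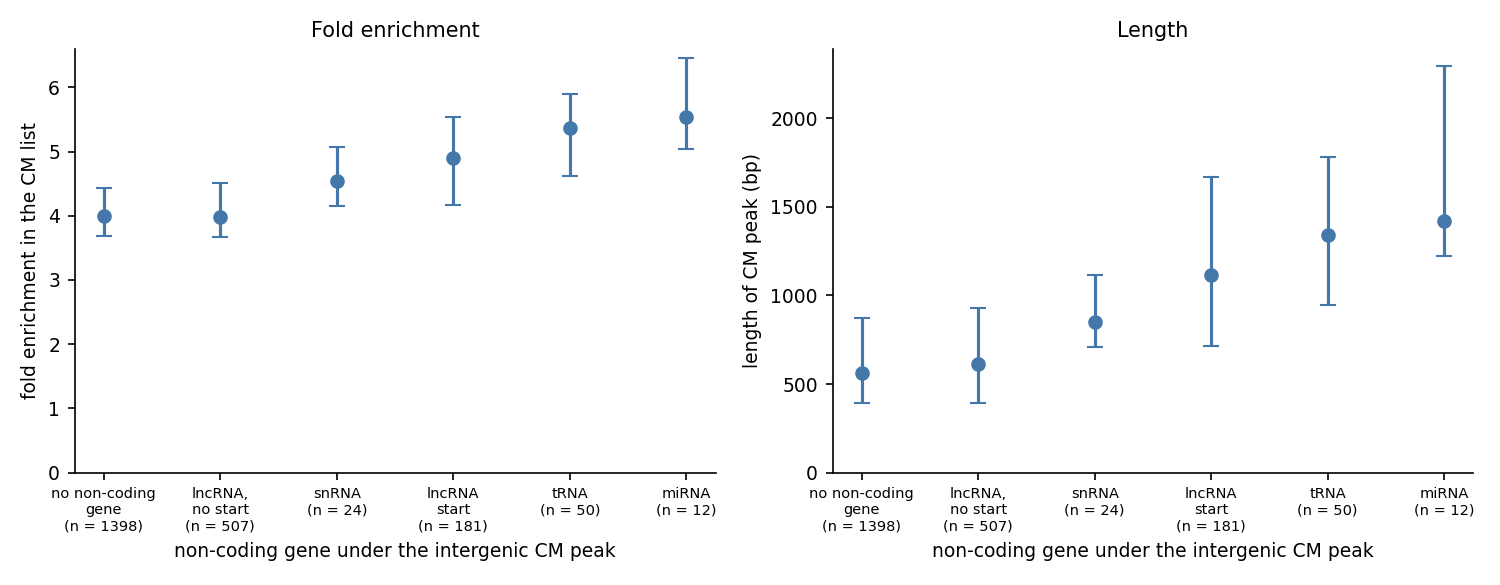
Points are medians and bars interquartile ranges of the fold enrichment in the CM list (left) and of the peak length in bp (right), for intergenic CM peaks split by the non-coding gene they overlap, with the number of peaks in parentheses. Median folds were 5.54 over microRNA genes and 5.36 over tRNA genes, against 4.00 where no non-coding gene lay. A peak may stand in more than 1 group, and the groups were not matched for length.

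Many of the peaks had a neighbour close by. Of the 2240 intergenic CM peaks, 825 (36.8%, interval 34.8 to 38.9) lay within 10 kb of another, against 24.0% of gene end peaks for their own kind and 43.7% of peaks inside genes. Joining peaks across gaps of up to 10 kb gave 1415 single peaks and 315 groups of 2 or more, of which 97 held 3 or more and 20 held 5 or more. Peaks in groups of 3 or more resembled single peaks in fold (medians 4.00 and 4.09) and were longer (756 and 585 bp). Their romidepsin partners were longer as well, at a median of 8843 bp against 3655 bp. These medians count a shared partner once for each peak it covers, and a long partner is more likely to cover several neighbours.

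The 5 largest groups held 9 to 12 peaks each. A group of 12 peaks covered 38868 bp of chromosome 2 (chr2:167740315-167779182) between Cebpb, which encodes the myeloid transcription factor C/EBPβ, and Ptpn1, a protein tyrosine phosphatase gene. Folds in it ran from 3.54 to 5.48, lengths from 312 to 2866 bp, and the last 2 peaks overlapped Gm32287, with the start of Gm14321 in the final one. Another group of 12 covered 32260 bp of chromosome 17 (chr17:84096055-84128314), 55610 to 87076 bp from Zfp36l2, which encodes an RNA-binding protein that promotes mRNA decay, with folds of 3.44 to 4.96 and no annotated non-coding gene. Groups of 10 lay beside Zfp217, a zinc finger gene (chr2:170152743-170206237, folds 3.31 to 5.19), and between Gm40363 and Pdia4, a gene for a protein disulfide isomerase (chr6:47739953-47789237, folds 2.98 to 4.29, with the Y RNA gene Rny3). A group of 9 (chr8:126826436-126853163, folds 3.53 to 5.02) lay between Irf2bp2, which encodes a partner of the repressor IRF2, and Tomm20, which encodes a mitochondrial import receptor.

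**Figure D3:**
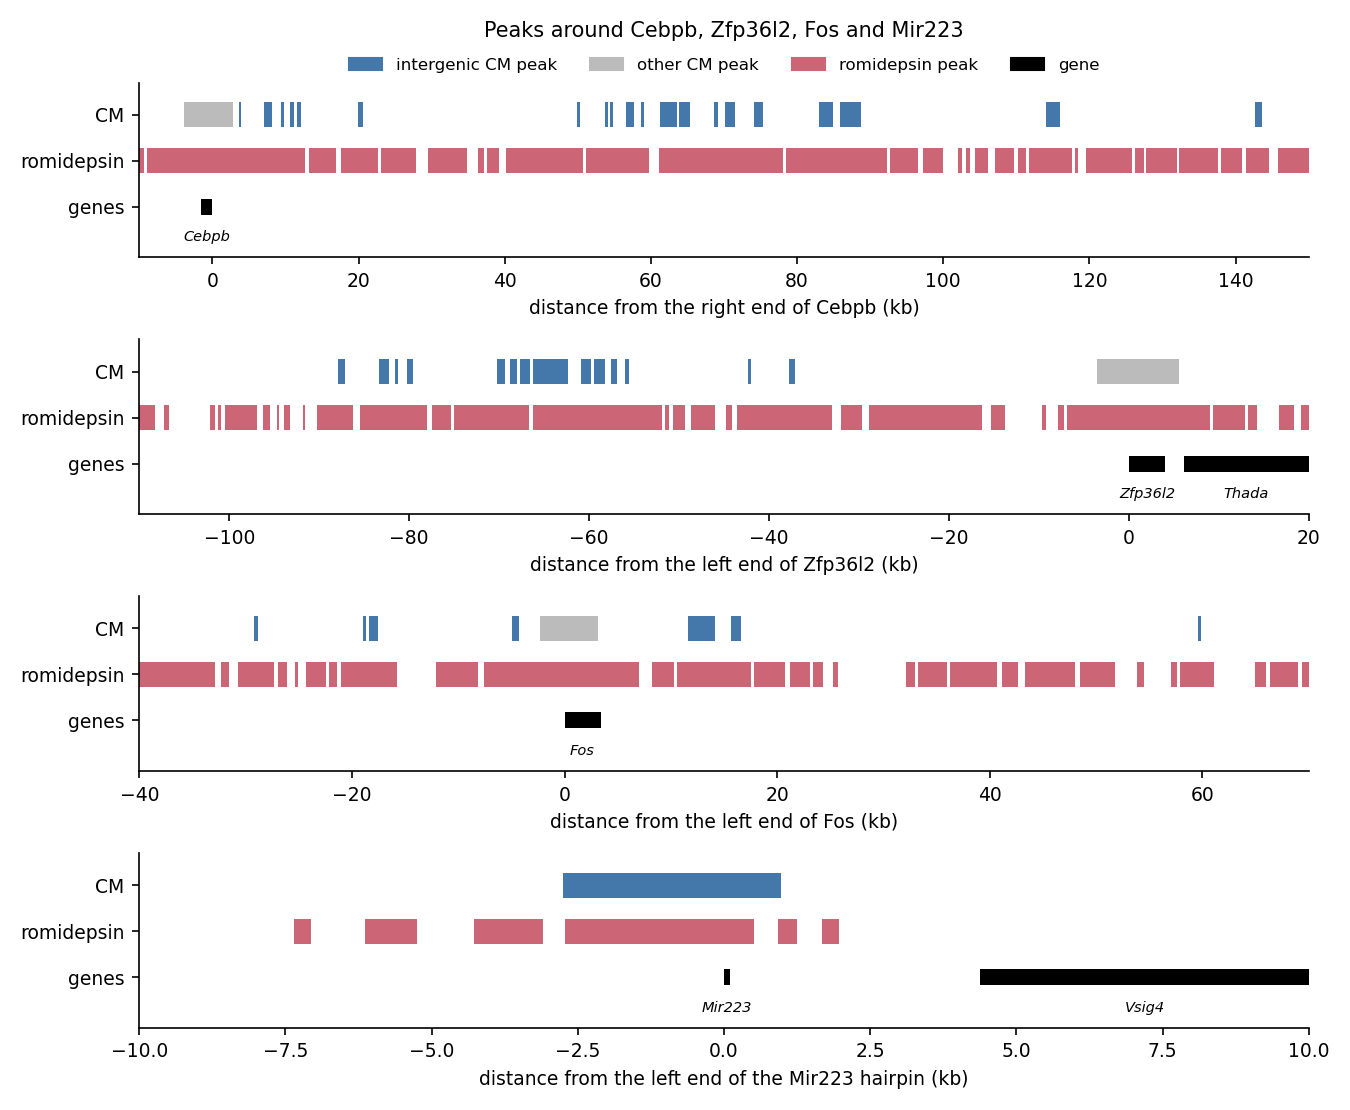
Peaks of the CM list (blue where intergenic, grey otherwise) and of the romidepsin list (red) around 4 genes (black), by distance in kb from the named end of the gene, drawn to scale. Around Cebpb the CM row holds 20 intergenic peaks and the romidepsin row 28 peaks, and at Mir223 a single CM peak of 3740 bp stands over 2 romidepsin peaks, the longer of 3233 bp.

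Romidepsin peaks covered most of the surroundings of Cebpb, with gaps between them. In the window from 10 kb left of its right end to 150 kb right of it, the CM list held 20 intergenic peaks and 1 peak over the gene itself (6611 bp, fold 7.05), which covered 27238 bp (17.0%), and the romidepsin list held 28 peaks, which covered 140482 bp of the window (87.8%). Of the 20, 19 had Cebpb as nearest gene, all downstream of it at 3645 to 114021 bp. The romidepsin peak over Cebpb (21672 bp, fold 4.14) also covered the 5 nearest of them, and single romidepsin peaks of 8600, 17020 and 13748 bp covered 4, 5 and 2 peaks of the group of 12. At Zfp36l2 14 intergenic peaks and the gene peak covered 23072 bp of a window in which romidepsin peaks covered 101034 bp, and at Fos 7 intergenic peaks and the gene peak covered 11468 bp against 79963 bp. None of the 14 peaks at Zfp36l2 had a partner that reached the gene.

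The 2240 peaks named 1497 of 21887 protein-coding genes as nearest gene, which is 6.84%. Of these genes 1099 had 1 peak, 398 had 2 or more and 41 had 5 or more. The 10 genes nearest to most peaks were Cebpb (19), Tomm20 (17), Zfp36l2 (14), Zfp217 (13), Ly6e, which encodes a GPI-anchored surface protein (9), Irf2bp2 (9), Fos (7), Anxa3, an annexin gene (7), 1600014C23Rik (7) and Irf2bpl, a relative of Irf2bp2 (6). Of the genes nearest to a peak, 76.4% had a CM peak at a gene end themselves, against 48.8% of all genes, whereas Zfp217 had none within 1 kb of its annotated ends. A nearest gene need not be the gene a peak acts on: the 17 peaks assigned to Tomm20 lie 9621 to 167037 bp from it in the same interval as the 7 upstream peaks of Irf2bp2, whose other 2 peaks lie downstream of that gene.

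How often a gene was named increased with the intergenic space around it. By quartile of the summed distance to both neighbouring genes, 2.25%, 5.43%, 8.76% and 10.9% of genes were nearest to a peak. Among genes with a CM peak at a gene end the share was 10.7% over all and 21.8% in the quartile with the most space. The list counts below have to be read beside this, and the median space around each list is given with them.

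The 16 gene lists were chosen with earlier results of these data known, so their counts are descriptions only. In 2 of the lists most genes were nearest to an intergenic CM peak. Of 20 myeloid transcription factor genes 15 (75%) were nearest to an intergenic CM peak, with 47 peaks, and of 20 AP-1 and immediate early genes 16 (80%), with 39 peaks, against 6.84% of all genes. The median space around these lists was 266931 and 85116 bp, against 47991 bp over all genes, and the widest quartile of genes reached 10.9%, or 21.8% with a CM peak at a gene end. Monocyte and macrophage markers, lipid handling and lysosome genes, and senescence and cell cycle arrest genes each had 8 of 20 (40%), with medians of 51760.5, 57356 and 53045.5 bp of space. Immune suppression genes had 4 of 20, neutrophil markers 3 of 20 and NF-kappaB pathway genes 2 of 20. Secreted inflammatory factors had 0 of 20, with a median space of 80325.5 bp, although 8 of them had a CM peak at a gene end. Histone deacetylase and corepressor genes, the group to which the targets of romidepsin belong, had 0 of 15. In lists of this size a count of 0 is near the 6.84% of all genes, so neither is read as an absence. Among lists for other cells, lymphocyte markers had 3 of 20, erythroid and megakaryocyte markers 2 of 14, stromal and endothelial markers 2 of 15, dendritic cell markers 1 of 15 (Batf3, which is also among the myeloid factors), mast cell and basophil markers 0 of 10, and neuron, liver, muscle and germ cell genes 1 of 20 (Snap25).

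**Figure D4:**
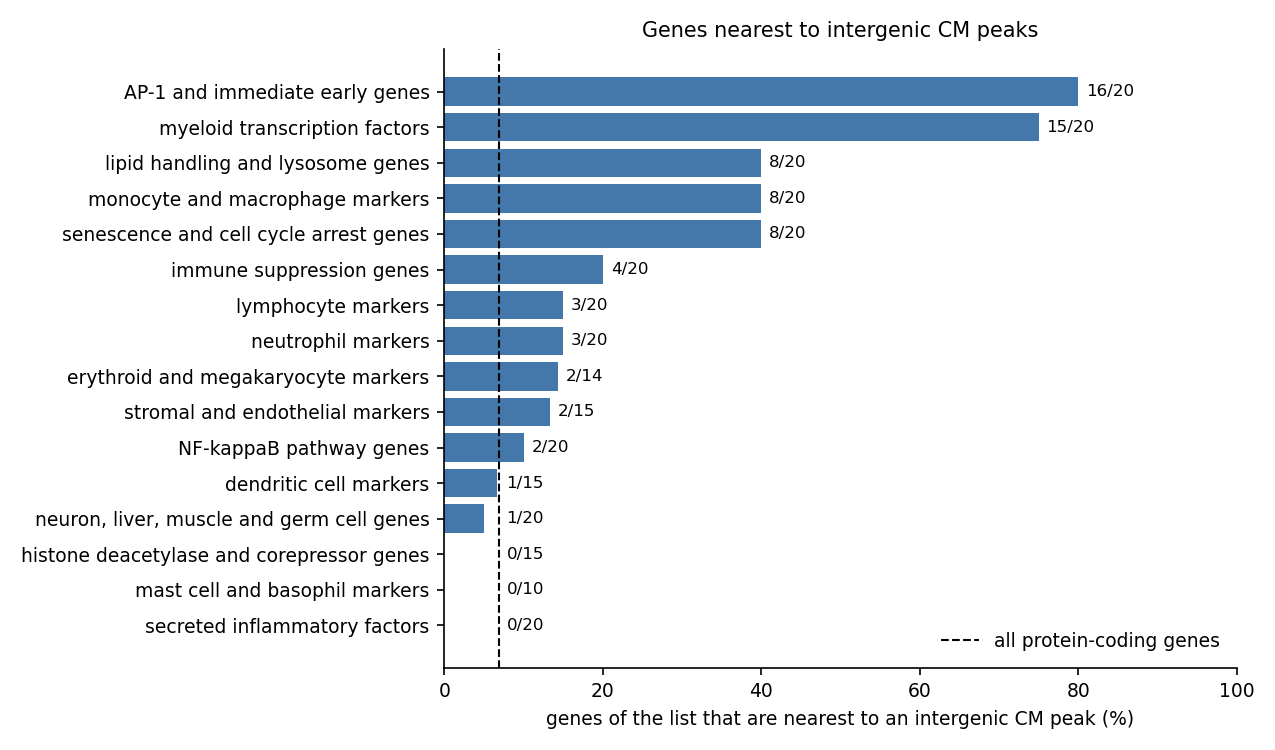
Bars give the percentage of genes of each list that were the nearest protein-coding gene of at least 1 intergenic CM peak, with counts beside them, and the dashed line marks the 6.84% of all protein-coding genes. AP-1 and immediate early genes (16 of 20) and myeloid transcription factors (15 of 20) have the longest bars. Secreted inflammatory factors have 0 of 20, which in a list of this size is near the dashed line. The lists were chosen with earlier results of these data known.

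Among the myeloid transcription factors, Cebpb alone held 19 of the 47 peaks, and the remaining 14 genes shared 28. Klf6, a Krüppel-like factor gene, had 5 peaks at 15718 to 146455 bp, 4 of them upstream, with folds of 3.88 to 5.17. Id2, which encodes an inhibitor of basic helix-loop-helix factors, had 4 upstream, a pair at 2528 and 3430 bp (folds 4.43 and 4.88) and a pair at 93198 and 94714 bp (folds 4.11 and 3.49). Klf4, a gene for a monocyte differentiation factor, had 3, the nearest 11798 bp downstream with a fold of 5.66, the highest of the list. Spi1, which encodes the myeloid master regulator PU.1, had peaks at 1288 and 3082 bp (folds 3.70 and 3.69), and 1 romidepsin peak of 18318 bp covered both and the gene. Cebpa, needed for granulocyte and monocyte progenitors, had 1 peak 5393 bp downstream (366 bp, fold 4.25), and Irf8, a monocyte and dendritic cell factor gene, had 1 at 36086 bp downstream (681 bp, fold 4.06). Runx1, a gene for a hematopoietic factor, had peaks 205823 and 315021 bp upstream (folds 4.12 and 4.47). Gfi1 and Zeb2, genes for repressors in granulocytes and monocytes, had no intergenic CM peak, although each had a CM peak at a gene end. Cebpd, Maf and Rara had no intergenic CM peak either. The partner of 14 of the 47 peaks touched the listed gene itself, at 8 genes. Over all intergenic CM peaks the partner touched the nearest gene for 341 of 2240 (15.2%). That share falls with distance, and the list was not compared with other peaks at equal distance.

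Peaks beside the AP-1 and immediate early genes, a list that holds genes for phosphatases and RNA-binding proteins beside transcription factors, lay at a median of 12937 bp. For the myeloid factors the median was 49883 bp, which the 19 peaks of Cebpb set, and 16280.5 bp without them. Fos had 7 peaks, at 4305, 17517, 18676 and 28805 bp upstream (folds 4.03, 4.81, 3.79 and 4.23) and at 8214, 12296 and 56185 bp downstream (folds 5.45, 4.57 and 4.43). Ier5 had 6 downstream at 9148 to 45135 bp, with folds of 3.46 to 5.54. Atf3, a stress-induced factor gene, had 4 upstream, of which the farthest, at 40593 bp, was the peak over the start of D730003I15Rik printed above. Jun had 4 upstream at 41322 to 163597 bp, and 2 of them overlapped its neighbour Junos. Junb and Ier2 had the strongest peaks of the list, at 1383 bp (2635 bp long, fold 6.05) and 1221 bp (2041 bp long, fold 6.39). Egr1 had 1 peak on chromosome 18 at 4584 bp (fold 5.26), and Myc had 1 at 47353 bp (fold 4.95), inside the lncRNA gene Pvt1. Partners of 13 of the 39 peaks touched the listed gene, at 10 genes, against 15.2% over all intergenic CM peaks, again not at equal distance.

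Of the monocyte and macrophage markers, Psap, which encodes the saposin precursor, and Ly86, a co-receptor gene of innate immunity, had 5 peaks each. All 5 at Psap were covered by 1 romidepsin peak of 44871 bp that ran over Psap and Cdh23. The 5 at Ly86 lay downstream at 15001 to 176427 bp, each with a partner of its own of 2388 to 3981 bp. Fcgr1, the high-affinity IgG receptor gene, had 4, of which the strongest (fold 5.04, at 33862 bp) overlapped the small nuclear RNA gene Gm24830. Itgam, which encodes CD11b and defines MDSC among other myeloid cells, had 3 upstream at 3479, 8939 and 19520 bp (folds 3.96, 3.26 and 3.66). Ccr2, F13a1 and Lyz2 had 2 each. Csf1r, the receptor gene for macrophage growth factor, had no intergenic CM peak, although it had a CM peak at a gene end. Neutrophil markers were represented by Fcnb (3 peaks), Lcn2 (1) and Prtn3 (1), and S100a8, S100a9 and Mpo had none. Nos2, Ptgs2 and Il4ra, genes tied to suppressor function, had 1 peak each with folds of 3.68, 4.22 and 3.77, Tgfb1 had 2, and Arg1 had none.

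Among the senescence and cell cycle arrest genes, Cdkn1a, which encodes p21, had peaks 8448 and 11621 bp upstream (folds 4.13 and 4.89), the farther over Trp53cor1, and Cdkn1b, which encodes p27, had 1 at 2972 bp upstream (fold 5.08) and 1 at 6621 bp downstream over Lockd (fold 5.02). Gadd45a and Hmga1 had 2 each. Cdkn2a and Cdkn2b, genes for classical senescence inhibitors, and Trp53 had none. Of the lipid and lysosome genes, Ctsd, the cathepsin D gene, had 4 upstream at 1390 to 10562 bp, all inside a romidepsin peak of 30412 bp, and Plin2, the lipid droplet coat gene, had 3. Nfkbia, which encodes the inhibitor IκBα, had 4 downstream at 14719 to 24969 bp inside a romidepsin peak of 20481 bp that did not reach a gene, and Tnfaip3, the A20 gene, had 3 upstream, the farthest at 154943 bp.

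Intergenic romidepsin peaks chosen by the same limits named far more genes. Of all protein-coding genes, 34.4% were nearest to such a peak, and of the listed genes 18 of 20 myeloid transcription factors, 18 of 20 AP-1 and immediate early genes, 17 of 20 secreted inflammatory factors, 16 of 20 monocyte and macrophage markers, 13 of 20 neutrophil markers and 7 of 15 histone deacetylase and corepressor genes. The secreted inflammatory factors thus had 0 of 20 in the CM list, near the 6.84% of all genes, and 17 of 20 in the romidepsin list. Lymphocyte markers went from 3 to 13 and neuron, liver, muscle and germ cell genes from 1 to 9 of 20. The romidepsin list held 30961 peaks within these limits, against 2240 in the CM list, and whether depth or treatment set these counts cannot be told apart.

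Nearly every intergenic CM peak had a romidepsin partner, taken as the longest romidepsin peak that overlapped it by at least 1 bp. A partner was found for 2233 of 2240 (99.7%, interval 99.4 to 99.9), against 99.9% of all CM peaks. Wholly inside 1 romidepsin peak lay 2185 (97.5%), against 97.9% of all CM peaks. The 7 without a partner were nearest Snrpe (1516 bp, fold 4.04), Ly6c1 (481 bp, fold 3.58), Spink13 (753 bp, fold 3.38), Frmd4a (415 bp, fold 3.03), Pex2 (548 bp, fold 3.70), Samd9l (615 bp, fold 3.43) and 9530057J20Rik (395 bp, fold 3.44). All 7 had folds below the median of 4.06. Partners had a median fold of 3.65, and 79.5% had a lower fold than their CM peak. This share was 86.1% over all CM peaks, 95.4% at gene ends and 68.2% inside genes. A lower fold does not show lower acetylation, because the folds of the 2 lists rest on different backgrounds and a wider region averages over more sequence.

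Partners were several times as long as the CM peaks, and the factor depended on where the CM peak lay. The median partner length was 4604 bp (interquartile range 2695 to 8436), and the median ratio of partner to CM peak was 6.57 (3.65 to 12.9), against 3.51 at gene ends and 9.67 inside genes. Since a short peak has more room to grow, ratios were compared at equal CM length. For CM peaks of 250 to 500 bp the medians were 10.5 for intergenic peaks, 7.42 at gene ends and 20.9 inside genes, and for 500 to 1000 bp 5.98, 4.12 and 10.8. At 1000 to 2000 bp they were 4.34, 3.37 and 4.99, and at 2000 to 5000 bp 2.91, 3.11 and 3.63. Up to 2000 bp the order was the same, with intergenic peaks between the other classes, and above it intergenic peaks had the lowest median. The interquartile ranges of the 3 classes overlapped in every length class.

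**Figure D5:**
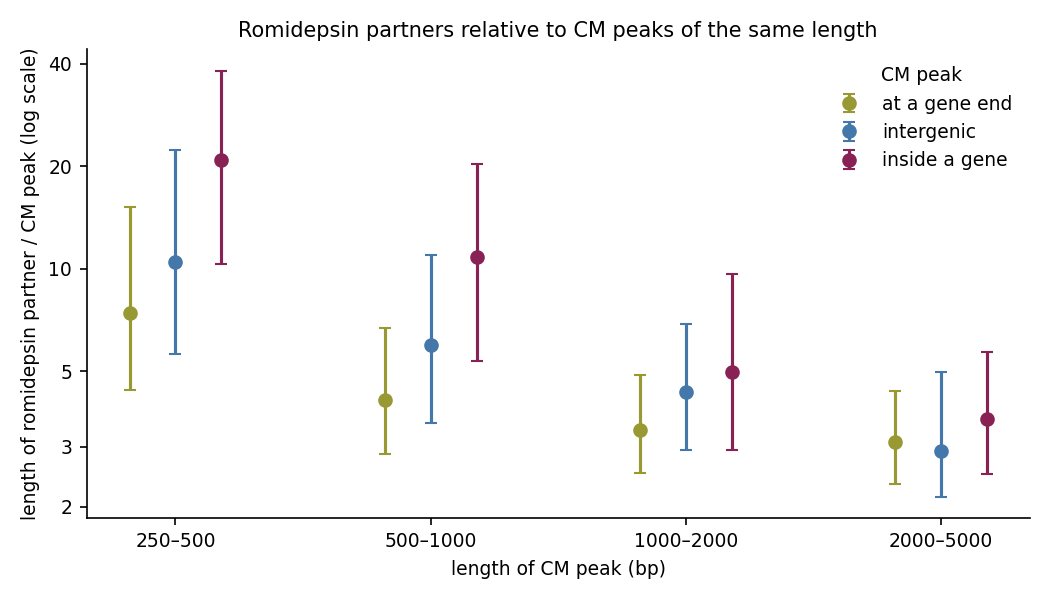
Points are medians and bars interquartile ranges of the ratio of the romidepsin partner's length to the CM peak's length (log scale), by length of the CM peak in bp and by where it lay. For CM peaks of 250 to 500 bp the medians were 7.42 at gene ends, 10.5 for intergenic peaks and 20.9 inside genes.

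A partner at least 10 times as long was found for 740 intergenic CM peaks (33.0%), against 22.5% of all CM peaks, and a partner longer than 10 kb for 445 (19.9%), against 25.5%. The partner covered another CM peak in 752 cases (33.6%), against 31.5% of all CM peaks. Another intergenic peak was covered in 556 cases (24.8%) and a gene end CM peak in 278 (12.4%). The 2233 partnered peaks had 1912 distinct partners, of which 235 covered 2 or more intergenic peaks. The most in 1 partner was 6, beside Ly6e (19471 bp, fold 4.29), Pdcd1lg2, which encodes the checkpoint ligand PD-L2 (22378 bp, fold 3.46), and Anxa3 (14489 bp, fold 3.72). None of these 3 partners reached a gene.

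Most partners stayed intergenic. Of the 1912 distinct partners, 1580 lay more than 1 kb from every protein-coding gene. The partner touched a protein-coding gene for 354 of the 2240 intergenic CM peaks (15.8%, interval 14.3 to 17.4), and it was the nearest gene for 341. The share was 80.6% for CM peaks 1 to 2 kb from a gene, 46.4% at 2 to 5 kb, 44 of 339 at 5 to 10 kb and 11 of 459 at 10 to 20 kb. Beyond 20 kb it was 0 of 486, 0 of 268 and 0 of 165 in the 3 further bins, with upper limits of 0.756%, 1.37% and 2.21% (exact 95% intervals, for counting error only). Of the 354 that touched a gene, 277 (78.2%) also covered a CM peak at a gene end, so that at least 2 separate CM peaks stood under 1 romidepsin peak. This is close to the 76.4% of genes nearest to an intergenic CM peak that had a CM peak at a gene end.

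Partners extended beyond the CM peak on both sides. Over the 2185 pairs in which the CM peak lay wholly inside the partner, the median extension was 1734 bp on the side of the nearest gene and 1516 bp on the other, and the gene side was the longer in 53.8% (interval 51.7 to 55.9). The medians were 8687.5 and 2247.5 bp over the 352 pairs with a partner that touched a gene and 1394 and 1401 bp over the other 1833. Nothing is read from these split values, since touching the gene is itself a matter of the extension on the gene side. The longest partner, 58808 bp with a fold of 4.20, ran over Mcl1, an anti-apoptotic gene, with Ensa and Adamtsl4, and covered 3 intergenic CM peaks. The next, 56873 bp with a fold of 4.03, ran over Notch1 and covered 2 intergenic CM peaks and 12 others.

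In 7 of 2233 cases, chosen after their values were seen, the partner was shorter than the CM peak. Over all CM peaks the partner was not longer in 28 of 16399. The longest of these CM peaks was that over Mir223, where the partner had 3233 bp and a fold of 3.08 against 3740 bp and 4.62 in CM, and a second romidepsin peak of 334 bp overlapped the CM peak's end. The others were nearest Slfn8 (2079 bp in CM, 2019 bp in the partner), Zfp980 (1443 and 1306 bp), B020031M17Rik (842 and 808 bp), Gm15319 (799 and 478 bp), Cr2 (696 and 644 bp) and Zfp637 (677 and 521 bp). The peak at Gm15319 lay in the stretch of chromosome 8 described above, and that at Slfn8 over the pseudogene Slfn10-ps. Short reads may be shared among copies at such places, and the part of that was not tested. Elsewhere among the microRNA peaks the partner was the longer, from 1959 bp at Mir713 to 12441 bp at Mir1949.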

How the data were processed

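Each of the 4 samples was 1 library, and the deposited broad peak list of each of the 2 immunoprecipitated libraries was used. The submitters' processing notes name build mm10 and the tools Bowtie2 2.4.4, MACS2 2.2.7.1 and deepTools 3.5.1, without their roles. Settings, read filters and the role of the input are not given in the sources used here. For each peak the deposited lists give a score, a ratio (fold enrichment over background) and −log10 values of p and q, all set by the authors' peak caller. Here they only describe, rank or filter the peaks of their own list. Positions are written with a first base numbered 1.

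Distances to the 21887 protein-coding genes of chromosomes 1 to 19, X and Y, overlaps of at least 1 bp, groups and partners were computed in Python 3.11 with pandas and numpy, and the functions were checked on simulated intervals. The 5 CM peaks on unplaced contigs were not assessed. Strand was taken from the RefSeq start table, which held 17492 of the genes. Shares carry exact Clopper-Pearson 95% intervals, which cover counting error only. No comparison between conditions was tested.

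The peaks described and the 16 gene lists (289 entries, 288 genes, all found) were chosen with earlier results of these data known. Named were the 10 peaks with the highest fold, the 5 longest, farthest and with the longest partner, the 5 largest groups, those without a partner, the 10 genes nearest to most peaks, up to 3 genes per list with 11 fixed ones, the peaks at the limits of the rule and those over microRNA genes. A peak at the distance limit is not reported here. Further members of the lists, named lncRNA genes and peaks with a shorter partner were chosen after seeing their values. The alternatives changed thresholds on q, length and distance limits, partner rules, gaps and gene sets.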

Additional observations from a re-analysis of the deposited data

How the results depend on the processing

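No paired analysis was possible because each condition had 1 immunoprecipitated library, and leaving out a library leaves nothing to compare. Of 58 alternative values, 32 stayed within the interval of the reported value (for counts of genes, within 1.5 times) and 26 did not. Restricting both lists to a −log10 q of at least 5 left 190 intergenic CM peaks and moved most values: 92.6% had a romidepsin peak, the length ratio was 3.12, 12.6% of partners reached a gene, 12.1% covered another CM peak, the median distance was 11833.5 bp and 8.42% lay within 10 kb of another. Myeloid transcription factors then had 2 genes, AP-1 and immediate early genes 4, monocyte and macrophage markers 0, and all genes 0.822%. At a −log10 q of at least 2 (1449 peaks) the ratio was 5.50, 27.7% of partners covered another CM peak, 28.5% of peaks lay within 10 kb of another and 40.5% overlapped a non-coding gene. With the 16419 strongest romidepsin peaks, 79.8% of intergenic CM peaks had one. The share over all CM peaks was computed neither for this setting nor at a −log10 q of at least 5. More than 5 kb from genes (1717 peaks) the ratio was 6.09, 3.20% of partners reached a gene, which the limit itself brings about, 27.8% covered another CM peak and 39.7% overlapped a non-coding gene. Genes widened by 1 kb were reached by 17.7%, and non-coding genes widened by 1 kb were overlapped by 42.1%. Counting non-coding genes, the median distance was 1952.5 bp. Gaps of 5 and 20 kb gave 29.7% and 44.8% within reach of another peak. Counting either flanking gene raised all genes to 11.7% and secreted inflammatory factors to 1. For the other settings the cause was not tested. Chromosomes 1 to 19 and X, coverage of at least 50% of the CM peak and the partner with the highest fold gave values within the intervals. Unknown depth limits every count, and peaks below the authors' threshold in CM cannot be seen.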

Other observations

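Among the 334 tRNA genes that lay more than 1 kb from protein-coding genes, 71 (21.3%, interval 17.0 to 26.0) were under an intergenic CM peak and 184 (55.1%, interval 49.6 to 60.5) under a romidepsin peak. Counting all CM peaks, 76 (22.8%) were under one. Copies of tRNA genes are near-identical, so these counts rest on how reads were shared among copies.

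Of the 30961 romidepsin peaks that met the same length and distance limits, 1094 overlapped a CM peak and 29867 did not. The latter lay at a median of 16138 bp from the nearest protein-coding gene, close to the 14871.5 bp of the intergenic CM peaks.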
